A study of Danio rerio with 4 samples.

Results

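Erythrocytes of the adult zebrafish heart were followed in 4 single-cell libraries taken 6 h after an operation on the heart. Cells were taken as erythrocytes when at least 25% of their UMIs (unique molecular identifiers, each counting 1 captured transcript) came from the adult haemoglobin genes hbaa1, hbaa2, hbba1 and hbba2 together. They also had at least 500 UMIs, at least 200 detected genes and at most 50% of UMIs from the mitochondrial genome. This rule gave 3757 cells out of 55075 that passed the same limits on UMIs, genes and mitochondrial share, and out of 78127 barcodes in all. The other 51318 kept cells are called other cells here. The cells were thus chosen by the measured share of the 4 haemoglobin genes, so that share and the level of any gene in erythrocytes against other cells are given as a description, with no test. Tests are kept to cryoinjured against sham libraries, and to whether that difference was the same in erythrocytes and other cells.

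Both groups were adult fish of the AB strain that received an intrathoracic injection of 4-thiouridine (4sU, a nucleoside that labels newly made RNA), mixed with fluorescein-dextran, 1 h before the operation, and morphine is listed for all 4 libraries. Cryoinjured hearts were touched with a cold probe and sampled at 6 h post cryoinjury (6 hpci, 2 libraries, replicates 1 and 2). Sham hearts had the body wall and pericardium opened without use of the probe and were sampled at 6 h post sham (6 hps, 2 libraries, replicates 1 and 2). Each library was a pool of several hearts, so a library and not a fish is the replicate. Hearts were perfused with buffered saline holding potassium chloride and heparin before they were dissociated, and the cells were fixed in methanol, so the number of red cells in a library is what was left after washing. Labeled and unlabeled transcripts are added in the counts used here. The libraries held 86891164 to 136777379 UMIs, of which the erythrocytes gave 4823014 and 12698551 in cryoinjured replicates 1 and 2, and 3151020 and 8420924 in sham replicates 1 and 2.

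Fish erythrocytes keep their nucleus, unlike those of mammals, and circulating ones carry messenger RNA that is dominated by alpha and beta globin. An alpha and a beta chain pair up, 4 chains with 4 haem groups make 1 haemoglobin molecule, and haem is built from glycine and succinyl-CoA in a pathway that begins with Alas2, the erythroid 5-aminolevulinate synthase. Carbonic anhydrase and the anion exchanger Slc4a1 (band 3) move carbon dioxide, while peroxiredoxin and glutathione peroxidase hold back the peroxides that form around iron and oxygen.

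The label was checked with genes that the rule did not use. On the scale of CPM, a gene's UMIs scaled to a common total, computed outside the globin genes (non-globin CPM), cahz, the erythroid carbonic anhydrase, was at 753 and 1594 in erythrocytes of cryoinjured replicates 1 and 2 and at 1299 and 596 in those of sham replicates 1 and 2. In other cells of the same libraries it was at 39.5 and 27.6 (cryoinjured) and at 11.7 and 17.3 (sham). The gene hemgn, which encodes a nuclear protein of the erythroid lineage, was at 262 and 474 in cryoinjured and 526 and 358 in sham erythrocytes, against 15.6 and 8.41 in cryoinjured and 5.001 and 10.1 in sham other cells. For alas2 the values were 182 and 583 in cryoinjured and 287 and 142 in sham erythrocytes, against 9.84 and 9.07 in cryoinjured and 2.64 and 3.94 in sham other cells. All 3 markers were therefore far higher in the gated cells of every library. The share of erythrocytes with at least 1 UMI of cahz was 75.8% and 91.0% in cryoinjured and 85.8% and 74.8% in sham libraries, against 13.6% and 6.79% of other cells in cryoinjured and 3.61% and 6.60% in sham libraries. Median depths were 5193 and 7566.5 UMIs in cryoinjured and 5409 and 7328.5 UMIs in sham erythrocytes, and 3228 and 2815 UMIs in cryoinjured and 2516 and 3480 UMIs in sham other cells. After each cell was thinned to 500 UMIs, cahz was seen in 17.8% and 21.9% of cryoinjured and 24.95% and 12.3% of sham erythrocytes, and in no more than 1.27% of other cells of any library. At that depth hemgn was seen in 5.98% and 6.46% of cryoinjured and 9.40% and 7.82% of sham erythrocytes, and alas2 in 5.45% and 9.08% of cryoinjured and 5.18% and 3.21% of sham erythrocytes. In other cells the thinned shares were at most 0.622% for hemgn and 0.334% for alas2.

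The haemoglobin share formed a range without a gap at the limit. No kept cell had over 75% of its UMIs from the 4 genes, and the highest gated cells reached 68.1% and 67.8% in cryoinjured and 65.5% and 66.2% in sham libraries. Cells just inside the limit (25% to 30%) numbered 158 and 106 in cryoinjured and 65 and 144 in sham libraries, and cells just outside it (20% to 25%) numbered 244 and 107 in cryoinjured and 49 and 155 in sham libraries. The cells just inside had 129.6 and 139.6 non-globin CPM of hemgn in cryoinjured and 210.9 and 154.4 in sham libraries, against 90.9 and 87.7 in cryoinjured and 165.5 and 111.9 in sham cells just outside. The median share of UMIs from cardiomyocyte markers was 4.13% and 3.51% in cryoinjured and 4.31% and 4.91% in sham cells just inside the limit, and 5.05% and 3.95% in cryoinjured and 5.41% and 5.63% in sham cells just outside it. In all 4 libraries hemgn was higher just inside the limit than just outside it. The cardiomyocyte share counts globins in its total, so it falls as the haemoglobin share that set these bands rises. Outside the globins, the cardiomyocyte marker myl7 differed less. It had 23859 and 22198 CPM in cryoinjured and 27786 and 31479 in sham cells just inside the limit. Just outside it had 24509 and 22587 in cryoinjured and 29180.5 and 32974 in sham cells. In bins of 2.5%, cryoinjured replicate 1 had its most gated cells right at the limit (83 at 25% to 27.5%), whereas cryoinjured replicate 2 had them at 57.5% to 60% (190 cells).

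**Figure D1:**
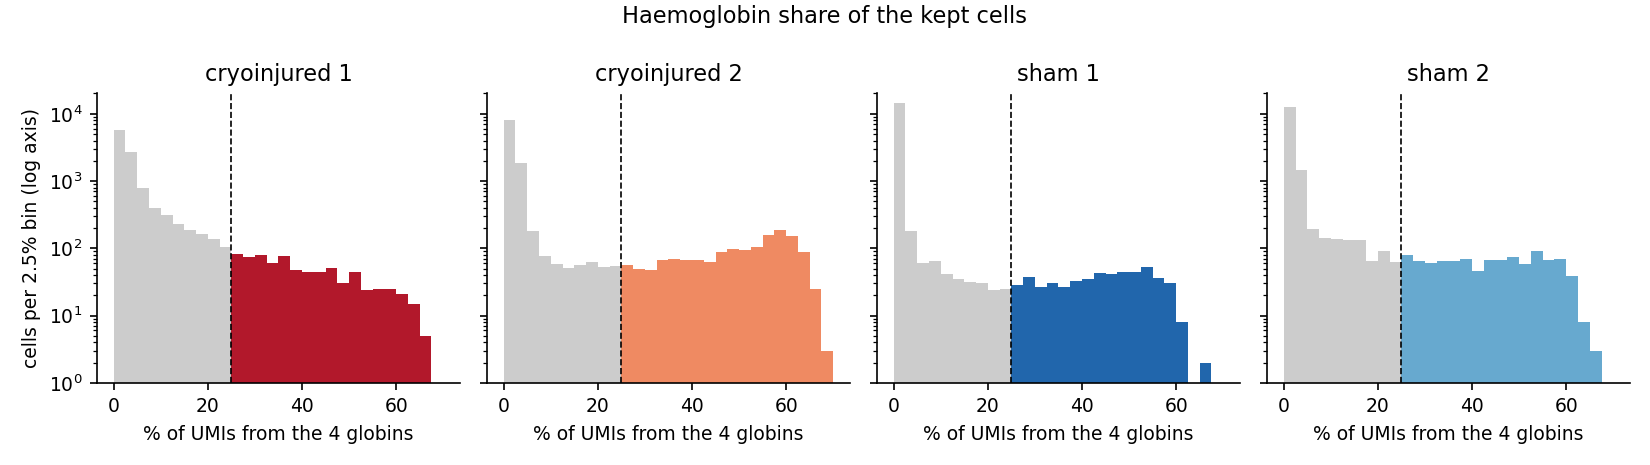
Number of kept cells (log axis) in bins of 2.5% of the share of UMIs from hbaa1, hbaa2, hbba1 and hbba2, 1 panel per library; the dashed line is the limit of 25% and coloured bars are the erythrocytes (752 and 1486 in cryoinjured, 521 and 998 in sham replicates 1 and 2). Among its gated cells cryoinjured replicate 1 is highest at the limit (83 cells at 25% to 27.5%) and cryoinjured replicate 2 at 57.5% to 60% (190 cells), and no library reaches 75%.

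Erythrocytes above 50% haemoglobin, 160 and 814 in cryoinjured and 174 and 339 in sham libraries, carried more erythroid RNA among their other transcripts than those at 25% to 50%. For alas2 they had 538 and 1262 non-globin CPM in cryoinjured and 610 and 413 in sham libraries, against 149 and 317 in cryoinjured and 208 and 103 in sham libraries in the lower band. Their median mitochondrial share was 6.49% and 6.30% in cryoinjured and 8.11% and 5.94% in sham libraries, against 16.2% and 21.9% in cryoinjured and 16.4% and 15.2% in sham libraries in the lower band. Their median share of cardiomyocyte markers was 0.579% and 0.508% in cryoinjured and 0.978% and 1.01% in sham libraries, against 2.78% and 2.02% in cryoinjured and 2.61% and 3.05% in sham libraries in the lower band. The mitochondrial and cardiomyocyte shares both count globins in their totals, so they fall as the haemoglobin share that set the bands rises. Outside the globins the fall was smaller for the heart muscle light chain gene myl7. It had 14538 and 14395 non-globin CPM in the upper band of cryoinjured and 17224 and 24280 in that of sham libraries. In the lower band it had 22562 and 19975 in cryoinjured and 26915 and 30604 in sham libraries. No barcode was shared by the erythrocytes of any pair of libraries, while 84 to 293 barcodes were shared by pairs among all deposited ones.

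In cryoinjured replicates 1 and 2, erythrocytes were 6.53% (6.09% to 6.995%, 95% interval by Wilson's method) and 12.4% (11.9% to 13.0%) of the kept cells, against 3.32% (3.05% to 3.61%) and 6.27% (5.90% to 6.65%) in sham replicates 1 and 2. The means were 9.48% ± 4.18 in cryoinjured and 4.79% ± 2.08 in sham libraries (SD, n = 2 each), a difference of 4.69 percentage points. Both cryoinjured libraries lay above both sham libraries, but cryoinjured replicate 1 exceeded sham replicate 2 by little, and within each replicate number the cryoinjured share was the higher one. An exact two-sided permutation test of 2 libraries against 2 cannot give less than p = 0.33, which was its value here. The intervals cover counting error only. Taken over all deposited barcodes, the shares were 4.71% and 6.46% in cryoinjured and 2.66% and 5.11% in sham libraries, and the groups overlapped (exact permutation p = 0.67). Without cryoinjured replicate 2 the difference was 1.73 percentage points, and without cryoinjured replicate 1 it was 7.64. In cryoinjured replicate 2, 46.4% of all barcodes had over 50% mitochondrial UMIs and were not kept, against 15.7% in cryoinjured replicate 1 and 20.01% and 18.4% in the sham libraries. The part of that loss in the share was not tested.

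The limit of 200 genes acted unequally on haemoglobin-rich barcodes. It removed 516 and 377 barcodes with at least 25% haemoglobin in cryoinjured libraries, against 10 and 17 in sham libraries (exact permutation p = 0.33, the smallest possible). The mitochondrial limit removed 12 more in cryoinjured replicate 2 and 0 in the other libraries. With these low-complexity barcodes kept, the difference in share between the groups was 7.38 percentage points. The erythrocytes that passed had a median of 352.5 and 282 genes in cryoinjured and 345 and 404.5 genes in sham libraries. The groups overlapped in genes and in UMIs. Because the rule set limits on genes, UMIs and mitochondrial share, these medians are given as a description. Thinned to 500 UMIs, the median was 108.5 and 68 genes in cryoinjured and 93 and 95 genes in sham erythrocytes. Cryoinjured replicate 2 thus had the fewest genes per cell at equal depth and also the highest haemoglobin share, with a median of 51.8% against 37.6% in cryoinjured replicate 1 and 45.0% and 44.2% in the sham libraries. The median mitochondrial share of the erythrocytes was 14.2% and 10.4% in cryoinjured and 12.4% and 11.02% in sham libraries, and the groups overlapped.

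The make-up of the globin transcripts was measured next, since the rule used only the sum. Beside the 4 symbols, si:ch211-5k11.8 was among the most abundant genes of the erythrocytes. It is listed with the synonym hbaa1.2, hence an alpha globin, in the RefSeq gene table of assembly GRCz12tu, where it lies next to hbba1 in the adult globin cluster. The symbol hbba1 stands for a pair of features, ENSDARG00000089087 and ENSDARG00000097238, and because copies of a gene can share reads, the division of UMIs between them is uncertain. With si:ch211-5k11.8 counted, globin transcripts made up 54.6% and 67.1% of all erythrocyte UMIs in cryoinjured and 61.6% and 59.0% in sham libraries.

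Of these globin UMIs, hbba1 ENSDARG00000089087 took the most, 32.6% and 35.9% in cryoinjured and 33.6% and 32.8% in sham erythrocytes. The alpha gene si:ch211-5k11.8 followed with 29.1% and 28.5% in cryoinjured and 29.0% and 30.3% in sham erythrocytes, with little spread among libraries. The alpha gene hbaa1 took 17.6% and 21.1% in cryoinjured and 16.4% and 15.2% in sham erythrocytes, so both cryoinjured libraries lay above both sham libraries. The second hbba1 feature took 10.7% and 8.56% in cryoinjured and 10.2% and 14.0% in sham erythrocytes. The minor beta gene hbba2 took 7.65% and 4.22% in cryoinjured and 8.05% and 6.45% in sham erythrocytes, and the minor alpha gene hbaa2 took 2.34% and 1.77% in cryoinjured and 2.78% and 1.39% in sham erythrocytes. Counted among the 4 genes of the rule, hbaa1 was 27.2% ± 3.25 in cryoinjured and 22.4% ± 0.947 in sham erythrocytes (SD, n = 2 each, exact permutation p = 0.33, the smallest possible). The shares of hbaa2, hbba1 and hbba2 overlapped between the groups (exact permutation p = 1, 0.67 and 0.67).

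Alpha and beta transcripts were nearly balanced once si:ch211-5k11.8 was counted. The ratio of alpha to beta UMIs was 0.963 and 1.06 in cryoinjured and 0.930 and 0.880 in sham erythrocytes, whereas without that gene it was 0.392 and 0.470 in cryoinjured and 0.370 and 0.311 in sham erythrocytes. Both forms of the ratio were higher in both cryoinjured libraries (exact permutation p = 0.33 for each). In other cells, where globin UMIs were 5.33% and 2.65% of all UMIs in cryoinjured and 1.22% and 2.98% in sham libraries by the 4 genes, the full ratio was 0.965 and 1.00 in cryoinjured and 0.921 and 0.855 in sham libraries. Each library's other cells therefore had nearly the globin make-up of that library's erythrocytes, with the same order of the 4 libraries for hbaa1, hbba2 and the alpha to beta ratio. The 26 library-level measures put through the exact test included per-cell medians that the limits of the rule had cut. Over all 26, no Benjamini-Hochberg adjusted exact p was below 1.

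**Figure D2:**
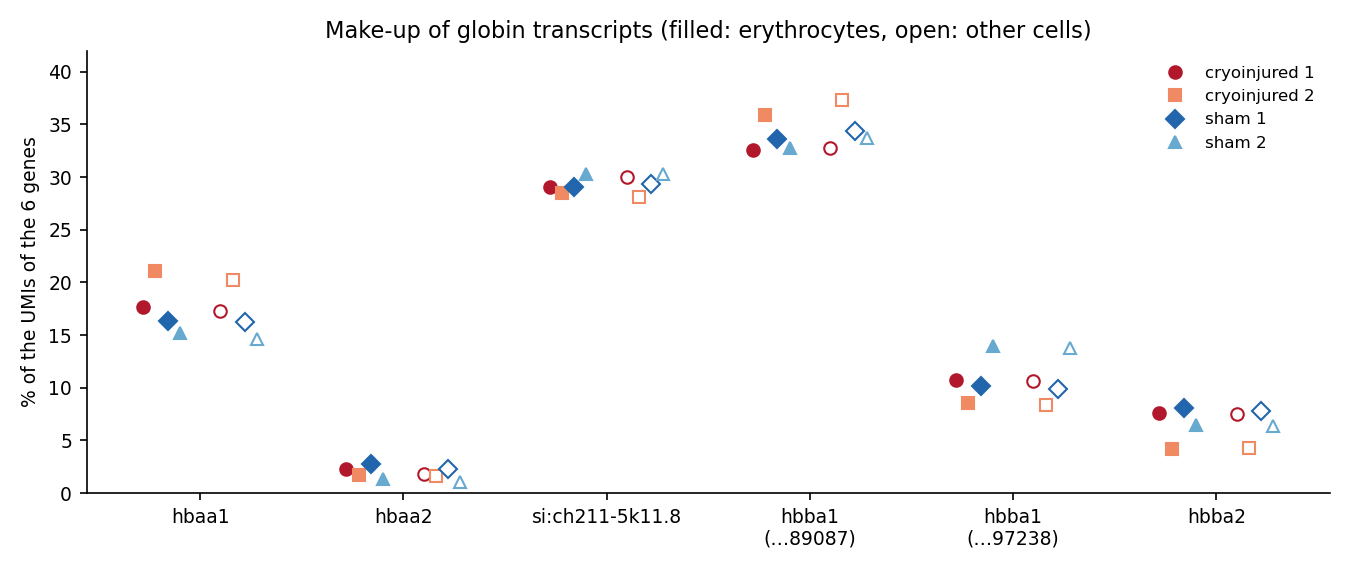
Share of each of 6 globin features among their summed UMIs, in percent, with 1 symbol per library; filled symbols are erythrocytes and open symbols other cells. Within a library the filled and open symbols lie close together for every feature, and hbaa1 is higher in both cryoinjured (17.6% and 21.1%) than in both sham libraries (16.4% and 15.2%).

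The remaining globins, which the symbols name as embryonic forms, were scarce. All 10 such features together gave 313 and 915 UMIs in cryoinjured and 327 and 772 UMIs in sham erythrocytes. Of these, hbae5 had 156 and 663 UMIs in cryoinjured and 194 and 426 in sham erythrocytes, and zgc:163057, which the symbol table names hbae4, had 132 and 143 in cryoinjured and 128 and 311 in sham erythrocytes. The genes hbae3 and hbbe3 had 0 UMIs in the 29093509 UMIs of all erythrocytes, which allows up to 3 by counting error.

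Single erythrocytes of 1 library differed in globin make-up by more than counting error. For hbba2, the SD over cells of its share of globin UMIs was 2.80 and 2.34 percentage points in cryoinjured and 2.38 and 1.84 in sham libraries. Counting error alone would give 0.576 and 0.308 in cryoinjured and 0.526 and 0.405 in sham libraries. The 5th to 95th percentiles of hbba2 over cells ran from 2.67% to 12.03% and from 0.700% to 8.24% in cryoinjured, and from 4.12% to 12.1% and from 3.31% to 9.32% in sham libraries. Cells with more hbba2 also had more hbaa2. Spearman's rho across cells was 0.63 and 0.83 in cryoinjured (752 and 1486 cells) and 0.32 and 0.50 in sham libraries (521 and 998 cells). These cells share a library and a pool of fish, and both shares have the same denominator. In the RefSeq table hbaa2 and hbba2 are direct neighbours, and so are hbaa1 and hbba1. Between hbba2 and hbaa1 lies ba1l, with the synonym hbba1.1, so both also adjoin it. For hbba2 with hbba1 ENSDARG00000089087, rho was -0.27 and -0.56 in cryoinjured and -0.59 and -0.37 in sham libraries. With hbba1 ENSDARG00000097238 it was -0.39 and 0.03 in cryoinjured and 0.17 and 0.08 in sham libraries. For hbaa1 with hbba1 ENSDARG00000089087, rho was 0.04 and -0.29 in cryoinjured and 0.24 and -0.60 in sham libraries. With hbba1 ENSDARG00000097238, rho was -0.57 and 0.32 in cryoinjured and -0.43 and 0.12 in sham libraries. For hbaa2 with si:ch211-5k11.8 it was -0.78 and -0.61 in cryoinjured and -0.75 and -0.35 in sham libraries. For si:ch211-5k11.8 with hbba1 ENSDARG00000089087 it was -0.16 and 0.25 in cryoinjured and -0.13 and -0.06 in sham libraries. With hbba1 ENSDARG00000097238 it was 0.56 and -0.35 in cryoinjured and 0.23 and -0.33 in sham libraries. A part of gene position was not tested. The share of hbba2 was almost unrelated to the total globin share of the cell, with rho between -0.066 and -0.012 over the 4 libraries.

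**Figure D3:**
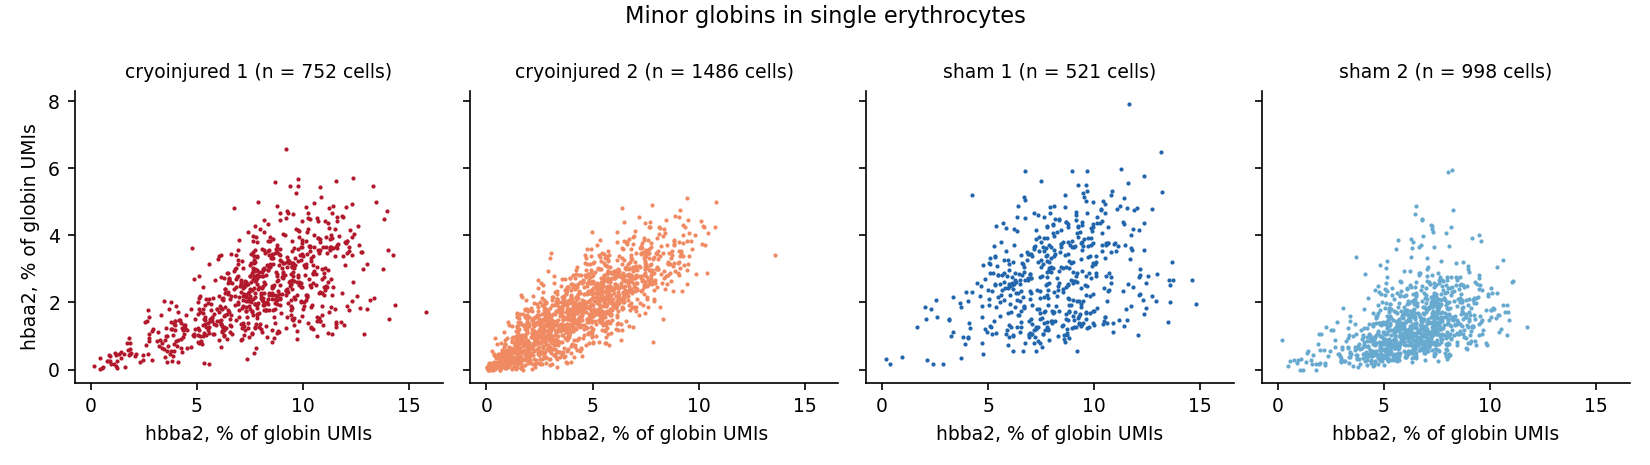
Share of hbaa2 against share of hbba2 among the globin UMIs of each erythrocyte, in percent, 1 point per cell and 1 panel per library. The points form a single rising cloud in each library, tightest in cryoinjured replicate 2 (Spearman's rho 0.83) and loosest in sham replicate 1 (0.32).

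Cells were then set apart by their hbba2 share within each library, a division chosen after the spread had been seen and described without a test. Each library was divided by rank into 4 groups of equal size. In the group with the most hbba2, prdx2, the peroxiredoxin of red cells, had 2.104 and 1.85 times the non-globin CPM of the group with the least in cryoinjured libraries, and 1.63 and 1.58 times in sham libraries. The membrane anion exchanger slc4a1a stood at 0.632 and 0.921 times in cryoinjured and 0.434 and 0.617 times in sham libraries. The carbonic anhydrase cahz stood at 0.702 and 0.640 times in cryoinjured and 0.611 and 0.841 times in sham libraries. For alas2 and hemgn 2 of the 4 libraries were higher and the other two lower. The median globin share was 0.955 and 1.00 times in cryoinjured and 0.988 and 1.05 times in sham libraries, so both groups had about the same share of haemoglobin RNA.

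The 20 genes outside the globins with the highest ratio of erythrocytes to other cells were led by si:ch211-103n10.5, with 1406 and 2926 non-globin CPM in cryoinjured and 2075 and 2267 in sham erythrocytes, against 79.0 and 47.6 in cryoinjured and 18.7 and 57.7 in sham other cells. After cahz came si:dkey-16p21.8, with 614 and 1039 in cryoinjured and 922 and 657 in sham erythrocytes. Some of the 20 encode enzymes against peroxides and other electrophiles. The glutathione peroxidase gene gpx1a had 1167 and 1660 in cryoinjured and 1634 and 857 in sham erythrocytes, against 209.9 and 174.2 in cryoinjured and 119.9 and 154.7 in sham other cells. The peroxiredoxin gene prdx2 had 1112 and 2263 in cryoinjured and 1151 and 984 in sham erythrocytes, and 282 and 342 in cryoinjured and 223 and 285 in sham other cells. The glutathione S-transferase genes gstm.1 and mgst1.2 and the superoxide dismutase gene sod1 were also among the 20. Not all antioxidant genes were higher in erythrocytes. Averaged over the 4 libraries, non-globin CPM of gpx4b was 0.742 times that of other cells, and that of gpx4a 0.836 times. The biliverdin reductase gene blvrb, which acts on a product of haem breakdown, had 201 and 184 in cryoinjured and 357 and 257 in sham erythrocytes. The ferritin heavy chain gene fth1a, the iron store, was the most abundant of the 20 in cryoinjured replicate 2, at 4962, against 1721 in cryoinjured replicate 1 and 2308 and 1614 in sham replicates. In other cells fth1a was at 680 and 776 (cryoinjured) and 714 and 699 (sham).

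**Figure D4:**
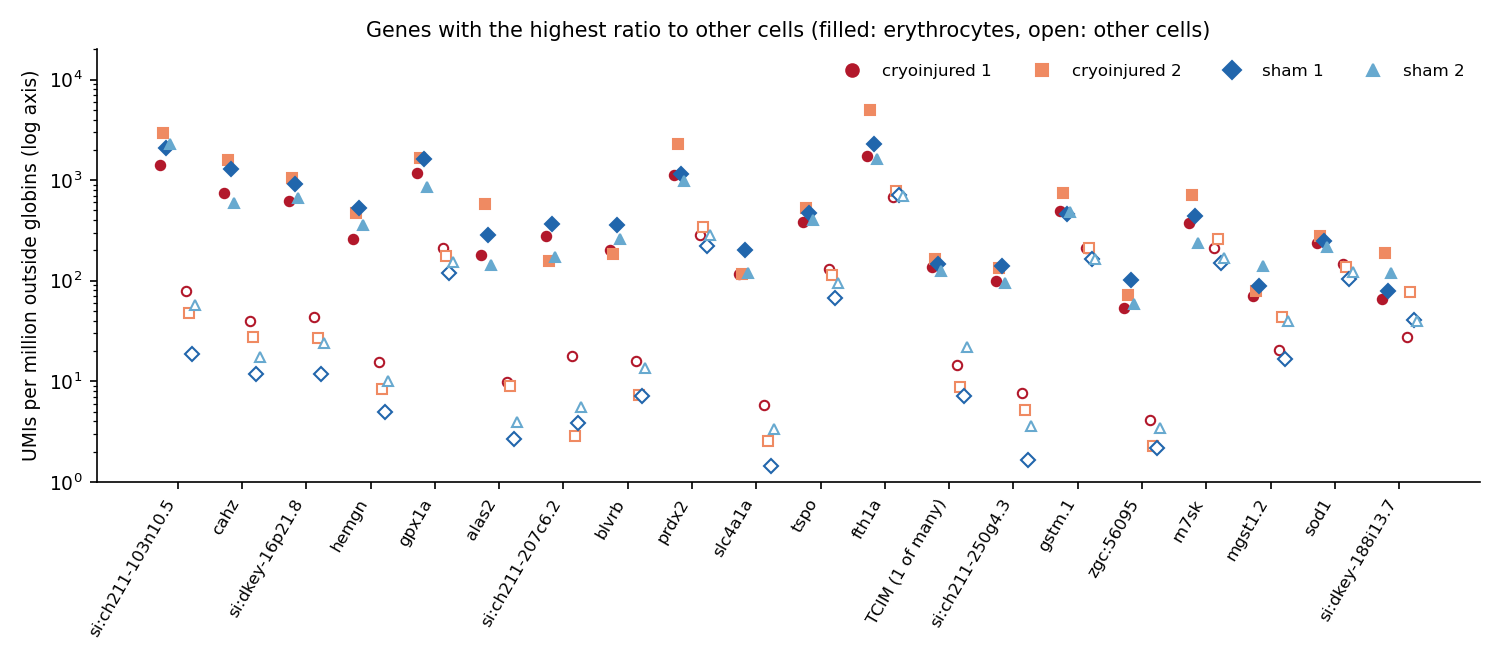
Level of the 20 genes outside the globins with the highest ratio of erythrocytes (filled) to other cells (open), as non-globin CPM on a log axis, 1 symbol per library. For cahz all filled symbols lie between 596 and 1594 and all open symbols between 11.7 and 39.5; 13 of the 20 genes have their highest filled symbol in cryoinjured replicate 2.

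Membrane and gas exchange genes came next in level. The band 3 gene slc4a1a had 117 and 115 non-globin CPM in cryoinjured and 200 and 118 in sham erythrocytes, and at most 5.77 in other cells of any library. The tropomodulin gene tmod4, whose product caps actin filaments, had 49.3 and 120 in cryoinjured and 90.1 and 66.0 in sham erythrocytes. The gas and ammonium channel gene rhag had 12.3 and 15.6 in cryoinjured and 15.7 and 7.81 in sham erythrocytes. In the list for haem synthesis, tmem14ca came next after alas2 by mean level. It had 35.2 and 32.5 CPM in cryoinjured and 39.2 and 34.1 CPM in sham erythrocytes, on the TMM scale of the gene test below. After it came hmbsb, the hydroxymethylbilane synthase gene. This gene had 10.0 and 3.35 non-globin CPM in cryoinjured and 21.5 and 9.26 in sham erythrocytes. The transcription factor gene gata1a, which directs erythroid genes, had 5.48 and 2.39 in cryoinjured and 14.0 and 9.84 in sham erythrocytes, and klf1, the erythroid Krüppel-like factor, had 4.57 and 2.87 in cryoinjured and 6.61 and 4.92 in sham erythrocytes. A UMI of gata1a was found in 1.60% and 0.673% of cryoinjured and 3.07% and 3.31% of sham erythrocytes, and in at most 0.307% of other cells of any library. Of the cell cycle list, 1 of 17 genes (pcna) had enough counts to be tested, and of the list of erythroid progenitor genes 1 of 10 (tfr1a). Over all features, 4011 of 31466 had enough.

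Whether these genes differed with injury was asked next, on UMIs summed over the erythrocytes of each library. The 4 libraries were scaled by edgeR's TMM factors, which were 1.25 and 0.617 for cryoinjured and 1.11 and 1.17 for sham replicates. None of the 4011 genes tested passed an adjusted p of 0.05 with edgeR's quasi-likelihood test (0% of genes). An unadjusted p under 0.05 was found for 204 genes (5.09%). DESeq2 was run without the count filter and called 5 of 15712 genes, of which 1 had at least 50 CPM on average. Without that filter edgeR called 24 of 15712, of which 8 had at least 50 CPM on average. Scaling by library size alone gave a median log2 fold change of -0.34 over all genes, against -0.01 with TMM, and called 0. Without cryoinjured replicate 1 the test called 114 genes and without cryoinjured replicate 2 it called 24, when the lone cryoinjured library was taken to vary like the sham ones, and without either sham library it called 0. Counts were also simulated at the same depths. Their spread followed the fitted trend over expression level and not each gene's own spread. In these counts the test recovered 56.5% of 200 genes changed 4-fold (3702 genes tested). It recovered 0% of those changed 2-fold (3707 genes tested), so in that setting differences of about 2-fold were not detectable.

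In the gene test alas2 had 66.3 and 312 TMM-scaled CPM in cryoinjured and 99.9 and 50.1 in sham erythrocytes. Only cryoinjured replicate 2 was high, and the groups overlapped (log2 fold change 1.34, SE 0.79, edgeR adjusted p = 0.87; without cryoinjured replicate 2 it was -0.15). Likewise fth1a had 628 and 2654 in cryoinjured and 804 and 568 in sham erythrocytes (log2 fold change 1.26, SE 0.71, edgeR adjusted p = 0.87, and -0.10 without cryoinjured replicate 2). The values of prdx2 were 406 and 1210 in cryoinjured and 401 and 346 in sham erythrocytes (log2 fold change 1.11, SE 0.50, edgeR adjusted p = 0.87). Here the groups did not overlap on this scale, by a narrow margin between cryoinjured replicate 1 and sham replicate 1, and they did on the non-globin scale. For cahz the log2 fold change was 0.77 (SE 0.63, edgeR adjusted p = 0.87) and for hemgn 0.18 (SE 0.46, edgeR adjusted p = 0.97), with overlapping groups. The globins had log2 fold changes of 0.87 for hbaa1, 0.39 for hbaa2, 0.60 and 0.14 for the hbba1 features ENSDARG00000089087 and ENSDARG00000097238, and 0.04 for hbba2, given as a description because the share of these genes chose the cells. With library sizes alone, hemgn, hbaa2, hbba2 and hbba1 ENSDARG00000097238 turned negative (-0.34, -0.04, -0.32 and -0.32), while alas2, cahz, hbaa1 and the other hbba1 feature stayed positive. Among the 20 genes with the highest ratio to other cells, 16 had a positive log2 fold change, beside 48.9% of all genes tested. Their median was 0.52, beside -0.01 over all genes tested. On the non-globin scale, however, only gstm.1 was higher in both cryoinjured libraries, and blvrb, slc4a1a and mgst1.2 were lower in both. On the TMM scale, 16% of all genes tested were higher in both and 19.5% lower in both. The share of all genes on the non-globin scale was not counted.

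Among genes with at least 50 CPM on average whose groups did not overlap, BX908782.2 had the lowest p. It had 193.5 and 118.1 TMM-scaled CPM in cryoinjured and 32.2 and 47.8 in sham erythrocytes (log2 fold change 1.95, SE 0.38, edgeR adjusted p = 0.75), and in other cells its log2 fold change was 2.03. Without the count filter, with DESeq2 and without either cryoinjured library it passed the threshold. Non-overlapping groups with cryoinjured higher were found for 16% of all genes tested, and with cryoinjured lower for 19.5%. Of the other 9 genes named by this rule as higher, 7 were genes of the mitochondrial genome (mt-atp6, mt-cyb, mt-co2, mt-nd1, mt-nd4, mt-co1 and mt-co3), with log2 fold changes of 0.60 to 0.89. The remaining ones were nme2b.2, a nucleoside diphosphate kinase gene, at 0.71 and btf3, a gene of nascent chain binding, at 0.64. The cytochrome b gene mt-cyb, for instance, had 9375 and 13119 CPM in cryoinjured and 5377 and 6783 CPM in sham erythrocytes. Those named as lower included aqp8a.1, a marker of endocardium and vessels, with 81.3 and 85.6 CPM in cryoinjured and 137 and 184 CPM in sham erythrocytes (log2 fold change -0.94). They also held the digestive protease gene ctrb1 (-0.82), the fatty acid binding gene fabp11a (-1.25), the survival gene mcl1a (-0.79), the alpha-actinin gene actn2b (-0.86), zgc:92066, named fthl27 in the symbol table and so a ferritin-like gene (-0.65), synpo2lb (-0.72), rpl26 (-1.75), gamt (-0.62) and atp1b1a (-0.25). None of these passed the threshold (edgeR adjusted p = 0.87 to 0.92). Of 4001 tested genes outside the globins only 99 were at least 2-fold above other cells in every library, whereas 1688 were below other cells in every library.

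Described as lists, whose members were chosen with earlier results of these data known, the erythroid groups leaned no common way. Of 8 haem synthesis genes tested, 1 (alas2) had a positive and 7 a negative log2 fold change, with a median of -0.22. Over all genes tested 51.1% were negative. Non-overlapping groups were found for 0 of the 8, beside 35.6% of all genes tested. The list for red cell membrane and gas exchange had a median of -0.08 over 10 genes. Of these, 1 was lower in both cryoinjured libraries, beside 19.5% of all genes tested. This was the water channel gene aqp1a.1, with 12.2 and 8.32 CPM in cryoinjured and 27.6 and 19.3 CPM in sham erythrocytes (log2 fold change -1.19, edgeR adjusted p = 0.87). Among 9 erythroid transcription factor genes 4 were lower in both cryoinjured libraries, beside 19.5% of all genes tested, and the median was -0.25. Among 9 antioxidant genes 4 were higher in both, beside 16% of all genes tested, with a median of 0.20. Of 6 genes for iron uptake and storage 3 were higher in both, beside the same 16%, with a median of 0.60, and these included the transferrin receptor gene tfr1a at 3.67 and 7.55 CPM in cryoinjured and 2.59 and 1.73 CPM in sham erythrocytes. In the haem breakdown list 1 of 3 genes tested was lower in both, beside 19.5% of all genes tested. This was the haem oxygenase gene hmox1a, with 2.4999 and 2.30 CPM in cryoinjured and 3.17 and 9.67 CPM in sham erythrocytes. With library sizes alone, which lowered the median of all genes to -0.34, the list medians that turned negative were those of adult globins (-0.04), antioxidant enzymes (-0.15), mitophagy of maturing red cells (-0.23), hypoxia and glycolysis (-0.13), interferon and antigen presentation (-0.14), ribosomal proteins (-0.04) and the cardiomyocyte, fibroblast and thrombocyte markers (-0.06, -0.13 and -0.04).

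The list of immediate early and AP-1 genes, which many cells induce soon after stress, had the lowest median of all lists. All 25 genes tested had a negative log2 fold change, against 51.1% of all genes, with a median of -0.97, and 14 of them were lower in both cryoinjured libraries, against 19.5% of all genes. The gene fosab had 26.3 and 29.0 CPM in cryoinjured and 33.7 and 90.4 CPM in sham erythrocytes, and junba had 18.3 and 17.7 CPM in cryoinjured and 29.7 and 46.2 CPM in sham erythrocytes. Sham replicate 2 was the highest library for both, and without it the median of the list was -0.30. The same genes had a median of -0.62 in other cells, where 23 of 25 were negative. Heat shock chaperone genes had a median of -0.61 over 17 genes, and 0.31 without sham replicate 2, with hsp70l at 146 and 224 CPM in cryoinjured and 125 and 594 CPM in sham erythrocytes. Of 15 mitochondrial genes 11 were higher in both cryoinjured libraries, against 16% of all genes, with a median of 0.60, and of 0.52 in other cells. As a share of non-globin UMIs, mitochondrial genes took 34.1% and 44.9% of cryoinjured and 35.6% and 33.7% of sham erythrocytes, which overlapped. Of 83 ribosomal protein features 45 were higher in both cryoinjured libraries, beside 16% of all genes tested, with a median of 0.31. As a share of non-globin UMIs, however, ribosomal protein genes took 26.6% and 23.1% of cryoinjured and 26.1% and 24.9% of sham erythrocytes, which overlapped, with a mean difference of -0.61 percentage points. Inflammatory genes, 8 tested, had a median of -0.26, and 0.84 without sham replicate 2. Of them 0 had non-overlapping groups, beside 35.6% of all genes tested. The glycolysis and hypoxia list had a median of 0.15 over 13 genes, and the interferon and antigen presentation list 0.19 over 10. None of the genes of these lists passed edgeR's threshold.

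**Figure D5:**
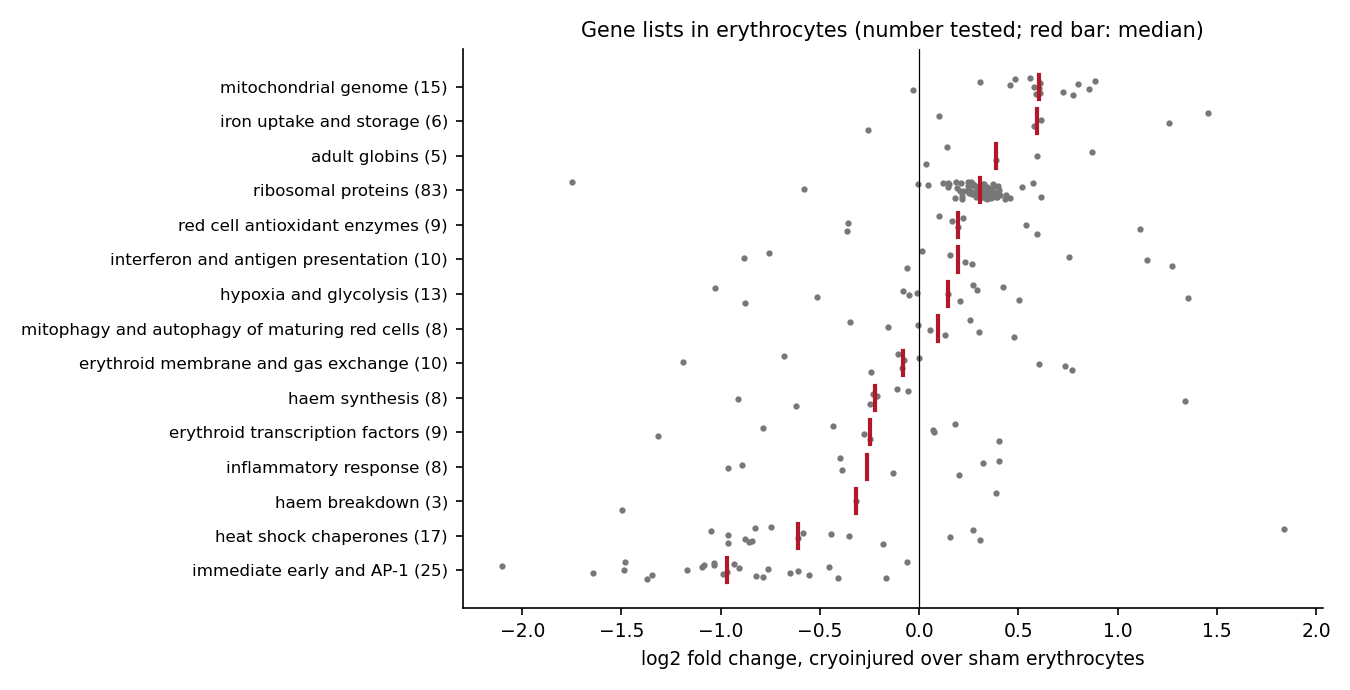
Log2 fold change of cryoinjured over sham erythrocytes for every tested gene (grey points) of each list with at least 3 genes tested, cell type markers aside, with the list's median (red bar); the number tested stands beside each name. Of the lists shown, immediate early and AP-1 genes lie lowest (median -0.97) and the mitochondrial genome highest (0.60), and no single gene passed the threshold.

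Markers of other cell types were present in the erythrocytes at the following levels, and their part in the results above was not tested. All 11 cardiomyocyte markers were detected in every library, at 3.002% and 1.72% of erythrocyte UMIs in cryoinjured and 2.61% and 3.104% in sham libraries, with a median over cells of 2.27% and 0.907% in cryoinjured and 1.82% and 2.08% in sham libraries. In other cells they took 7.84% and 8.06% in cryoinjured and 9.80% and 8.82% in sham libraries. Of the UMIs outside the globins, these 11 markers took 6.61% and 5.22% in cryoinjured and 6.79% and 7.56% in sham erythrocytes. In other cells they took 8.48% and 8.37% in cryoinjured and 9.98% and 9.21% in sham libraries. These values cover the 11 markers alone and do not measure all RNA of cardiomyocyte origin. Neutrophil markers took 0.0219% and 0.0109% of erythrocyte UMIs in cryoinjured and 0.000889% and 0.0229% in sham libraries. Their defining gene lyz had 88.2 and 87.4 CPM in cryoinjured and 0.576 and 161 CPM in sham erythrocytes, and 5 of 6 tested neutrophil genes were higher in both cryoinjured libraries, beside 16% of all genes tested, with a median log2 fold change of 1.27 (4.08 without sham replicate 2, and 1.41 in other cells). Macrophage markers took 0.00431% and 0.00617% in cryoinjured and 0.00501% and 0.0178% in sham libraries, endothelial markers 0.0234% and 0.0141% in cryoinjured and 0.0321% and 0.0380% in sham libraries, and thrombocyte markers 0.00572% and 0.00328% in cryoinjured and 0.00368% and 0.00616% in sham libraries. Members of the thrombocyte list differed: gp9, a gene of the platelet glycoprotein complex, had 29.2 and 18.2 non-globin CPM in cryoinjured and 50.4 and 30.7 in sham erythrocytes, against 1.90 and 0.371 in cryoinjured and 0.569 and 1.03 in sham other cells. Its partner gp1bb had 6.85 and 16.7 in cryoinjured and 12.4 and 10.4 in sham erythrocytes, against at most 1.70 in other cells of any library. The fibronectin gene fn1b, the most abundant of the list, had 85.9 and 61.7 in cryoinjured and 33.1 and 98.97 in sham erythrocytes, against 61.4 and 149 in cryoinjured and 47.8 and 131 in sham other cells. The median over cells was 0 for the neutrophil, macrophage, endothelial and thrombocyte lists. Surface epithelium markers took 0.00141% and 0.0100% in cryoinjured and 0.000476% and 0.00166% in sham libraries, led by krt91 at 10.8 and 116 CPM in cryoinjured and 4.32 and 13.1 CPM in sham erythrocytes. Smooth muscle markers took 0.0409% and 0.00820% in cryoinjured and 0.00527% and 0.0448% in sham libraries, and fibroblast and epicardium markers at most 0.00606% in any library. T lymphocyte markers gave 34 UMIs in all, and the 4 B lymphocyte markers gave 0 UMIs in 3757 erythrocytes, which allows a share of up to 0.0799% of cells with a UMI. Doublet calls fell on 6.25% and 19.8% of cryoinjured and 13.6% and 12.5% of sham erythrocytes. In other cells they fell on 9.42% and 8.10% in cryoinjured and 12.5% and 12.8% in sham libraries. With the doublet calls left out, edgeR called 0 of 3440 genes tested. With the cells over 2% cardiomyocyte markers left out, it called 0 of 1702. Those cells were 56.4% and 25.1% of cryoinjured and 45.9% and 51.6% of sham erythrocytes. Since 0 of 4011 genes were called with all cells, these counts cannot show an effect of the cells left out.

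Whether injury acted differently in erythrocytes and in other cells was tested as an interaction over 12563 genes, of which 8 passed an adjusted p of 0.05 in edgeR (0.0637%), while 2.85% had an unadjusted p under 0.05. All 8 were low, with at most 29.5 CPM in any library's erythrocytes. With the replicate number as a block 5 genes were called, without cryoinjured replicate 1 it was 1, and without cryoinjured replicate 2 it was 30. The one of the 8 with the highest mean in erythrocytes, nt5c2l1, a nucleotidase gene by its symbol, had 14.9 and 14.6 CPM in cryoinjured and 29.5 and 18.2 CPM in sham erythrocytes, but 3.798 and 3.26 CPM in cryoinjured and 0.939 and 1.46 CPM in sham other cells. The difference of its log2 fold changes was -2.05 (SE 0.38, edgeR adjusted p = 0.000135). For nt5c2l1 the log2 fold change was -0.22 in erythrocytes and 2.097 in other cells, so the difference lay mostly in other cells. There all 6 tested features of the erythrocyte marker list, which includes globins and cahz, were also positive (median 1.597). Of 8 haem synthesis genes, 5 were positive and 3 negative in other cells. None of these passed the threshold there. The part of erythrocyte RNA among other cells in this interaction was not tested. The globins of the rule stayed in the fit, but no test of them is given, since their share set the 2 classes apart. Among genes at 50 CPM or more the lowest p was that of the macrophage marker grn1 (difference -1.13, edgeR adjusted p = 0.91), followed by slc4a1a (difference -1.06, edgeR adjusted p = 1).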

How the data were processed

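Per the labels, 4 single-cell libraries of zebrafish hearts were measured. The authors made the deposited UMI counts with Cell Ranger 4.0.0 on GRCz11 with an added RFP gene; the counts are not normalized. Barcodes under 500 UMIs were absent. Droplet, free and mixed RNA stay in such counts. Members and lists were chosen with earlier results of these data known. UMI counts were summed per library over erythrocytes and over other cells. edgeR 4.0.16 (TMM, filterByExpr with a minimum count of 10, quasi-likelihood, model on group only, Benjamini-Hochberg) was the gene test, and DESeq2 1.42.0 an alternative. It was tested on simulated data. Adjusted p threshold: 0.05. Groups came from the titles in the labels. Separate pools were labelled as replicates; p-values measure the spread between these libraries. The study's sample sheet lists other operators for each replicate number, so the numbers may pair the libraries, which the labels do not state. Deviations of same-numbered libraries correlated weakly (r = 0.1954 over 4011 genes). The main gene test and the permutation tests left such a pairing out. The block fit was an alternative. Doublet scores came from Scrublet (scanpy 1.11.5). Its own limit marked 0%, 0% and 0.0188% of cells in 3 of 4 libraries and 19.9% in sham replicate 1. The top-scoring cells were therefore called instead, at 0.8% per 1000 cells kept, and were left out only in an alternative. Genes were named by fixed rules: the 4 globins, alas2, hemgn and cahz; those past the threshold, or with the lowest p and non-overlapping groups, at 50 CPM or more, up to 10 in each direction; up to 4 per list by level; the 20 with the highest ratio to other cells, with 50 CPM added to both; and the 5 with the lowest interaction p at 50 CPM. Outside these rules, rhag, gata1a, klf1, gpx4a, nt5c2l1, si:ch211-5k11.8 and the embryonic globins were chosen after their values were seen. The genes gp9 and gp1bb fell under the rule per list, but were set against other cells after their values were seen. Thinning used seed 7. Labeled-RNA counts were not used here. Genes of the lists that the table lacks by symbol numbered 7.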

Additional observations from a re-analysis of the deposited data

Results flagged for a closer look

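For 8 genes the difference between cryoinjured and sham libraries was itself different in erythrocytes and in other cells, by edgeR's interaction test. The differences of the log2 fold changes (erythrocytes minus other cells) were 4.68 for SPINK2, 4.47 for si:dkey-203a12.8, 3.50 for MFAP4 (1 of many), 3.72 for si:dkeyp-75b4.10, 3.05 for si:dkey-203a12.2, -2.05 for nt5c2l1, -3.87 for selenow2b and -4.74 for il4. In erythrocytes the 5 positive ones were highest in cryoinjured replicate 1, as SPINK2 with 7.05 and 0.157 CPM in cryoinjured and 0 and 0.950 CPM in sham libraries. The cytokine gene il4 was carried by sham replicate 2, with 0 and 0.0787 CPM in cryoinjured and 0 and 7.36 CPM in sham erythrocytes. Only nt5c2l1 had over 10 CPM in the erythrocytes of all 4 libraries. Its log2 fold change was -0.22 in erythrocytes and 2.097 in other cells.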

How the results depend on the processing

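The mean cryoinjured share of erythrocytes was the higher one under all alternatives, by 1.70 to 8.48 percentage points, and by 1.73 to 7.64 when a library was left out. This compares means and not the order of the libraries. With at least 50% globin the erythrocytes were 160 of 11517 and 814 of 11950 kept cells in cryoinjured libraries. In sham libraries they were 174 of 15685 and 339 of 15923. Cryoinjured replicate 1 then lay below sham replicate 2, so the groups overlapped. Differences of per-cell medians changed sign. For UMIs (11 in the report) it was -33.5 with at least 10% globin, -11.75 with at most 25% mitochondrial UMIs, -1594 with no minimum of genes, -64.75 with si:ch211-5k11.8 counted, and -1175.75 to 1197.75 without a library. For globin percent (0.113) it was -0.977 with at least 10% globin, -0.225 without doublet calls, -0.821 without cells over 2% cardiomyocyte markers, -0.785 with si:ch211-5k11.8 counted, and -6.95 to 7.18 without a library. For mitochondrial percent (0.565) it was -0.627 with at least 50% globin, -0.487 with at most 25% mitochondrial UMIs, and -1.37 to 2.498 without a library. Leaving out a library gave -1.03 to 0.893 percentage points for hbaa2 and -4.39 to 0.485 for hbba2 among the 4 globins. DESeq2 called 5 genes, no count filter 24, and fits without a library 0 to 114, of which list members were 0 to 36. Interaction calls were 2 with library sizes alone, 5 with the replicate block and 1 to 30 without a library. The block changed no other call. Each gene fit without a library left a lone library in its group. The gene fit with the most calls, without cryoinjured replicate 1, tested 5412 genes. The number of list members tested in these fits is not given here. The count of up to 36 list members therefore cannot be compared with the share called over all genes, and no effect on the lists is drawn from it. Library sizes alone gave log2 fold changes of -0.32 for hbba2, -0.041 for hbaa2, -0.32 for hbba1 ENSDARG00000097238 and -0.34 for hemgn. Leaving out cells over 2% cardiomyocyte markers gave -0.12 for hbba2, -0.069 for hbba1 ENSDARG00000097238 and -0.028 for hemgn, and at least 50% globin gave -0.044 for hbba1 ENSDARG00000097238. Without a library, hbba2 ran from -0.18 to 0.38, hbaa2 from -0.11 to 1.16, hbba1 ENSDARG00000097238 from -0.41 to 0.60, hbba1 ENSDARG00000089087 from -0.28 to 1.19, hbaa1 from -0.094 to 1.49, cahz from -0.24 to 1.52, hemgn from -0.67 to 0.76, alas2 from -0.15 to 2.104 and fth1a from -0.10 to 2.00. Of 500 refits of 30 named genes, 451 kept direction and side of the threshold, 20 changed sign and 29 passed the threshold. The cause of these changes was not tested. Among the 30 are the up to 10 genes in each direction that were named because their groups did not overlap. Such genes were unlikely to change sign when a library was left out, so these counts do not measure stability. Counting si:ch211-5k11.8 and leaving out all globins were chosen after seeing the data.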
